A study of Homo sapiens with 12 samples.

Results

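Iron handling was followed through 10 genes in cultured human glioblastoma cells of the established line U-87 MG. The genes are FTL, FTH1, TFRC, SLC40A1, SLC11A2, HMOX1, IREB2, ACO1, NCOA4 and STEAP3. Their rows were found by Ensembl identifier among the 20263 genes of the expression table, and 9 of the 10 passed a filter on low values. The set was chosen by the level of FTL, which stood highest in each of the 12 libraries, so that rank is a description with no test. By the GENCODE 29 annotation of GRCh38, FTL lies at chr19:48965301-48966878, FTH1 at chr11:61959718-61967660 and NCOA4 at chr10:46005088-46030714. TFRC lies at chr3:196027183-196082189, SLC11A2 at chr12:50979401-51028566, STEAP3 at chr2:119223831-119265652 and SLC40A1 at chr2:189560579-189583758. HMOX1 lies at chr22:35380361-35394214, ACO1 at chr9:32384603-32454769 and IREB2 at chr15:78437431-78501456. Messenger RNA was sequenced from 4 groups of 3 libraries: cells with an empty vector (vector), cells labelled as knockouts of HIF1α (HIF1α-ko), of HIF2α (HIF2α-ko) and of both factors (HIF1α/2α-ko). All 12 libraries came from cells kept at 1% O2, for 72 h according to the record of the experiment, while the study's general methods give a shorter time for RNA work. No library at another oxygen level was analysed here, so every comparison is between genotypes under hypoxia. How the knockouts were made, and whether a line is 1 clone, is not given in the sources used here. Nothing states that the 3 libraries of a group came from separate cultures, so p-values measure only the spread between these libraries.

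Cells take up iron mainly as transferrin bound to the transferrin receptor. The metal is freed and reduced in the endosome, moved to the cytosol, and used for heme and iron-sulfur clusters, stored in ferritin or exported by ferroportin. The iron regulatory proteins, encoded by ACO1 and IREB2, bind a hairpin called the iron-responsive element when iron is scarce: in a 5′ UTR this blocks translation, and in the 3′ UTR of the transferrin receptor it protects the transcript from decay. Hypoxia-inducible factors (HIFs) are marked for degradation by iron-dependent enzymes. HIF targets include genes of iron uptake and heme turnover, which also links oxygen sensing with iron supply.

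The iron-responsive elements of 4 members are shown because they are the sequence feature by which this gene set is known to be co-ordinated after transcription. They were found by a search of GENCODE 29 protein-coding transcripts on GRCh38 for an unpaired C, 5 bases, CAGTG followed by A, C or T, and 5 bases that pair with the first 5, with G-T pairs allowed. The loop CAGTGN is in capitals, each line is written 5′ to 3′ on the gene's strand, and every window lies within 1 exon.
FTL 5′ UTR, chr19:48965335-48965364, plus strand: ctcttgcttcaaCAGTGTttggacggaaca
FTH1 5′ UTR, chr11:61967573-61967602, minus strand: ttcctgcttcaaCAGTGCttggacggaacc
SLC40A1 5′ UTR, chr2:189580660-189580689, minus strand: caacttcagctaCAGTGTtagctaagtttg
TFRC 3′ UTR, chr3:196050978-196051007, minus strand: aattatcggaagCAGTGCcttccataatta
TFRC 3′ UTR, chr3:196050574-196050603, minus strand: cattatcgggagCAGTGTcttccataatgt
TFRC 3′ UTR, chr3:196050509-196050538, minus strand: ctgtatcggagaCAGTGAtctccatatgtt
TFRC 3′ UTR, chr3:196050462-196050491, minus strand: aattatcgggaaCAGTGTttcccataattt
The pattern occurred in 214 of 19702 genes searched (1.09%) and in 450 of 83129 transcripts (0.541%). The ferritin matches lie in the 5′ UTR, as does that of SLC40A1, while TFRC had 4 matches within its 3′ UTR. No match was found in SLC11A2, HMOX1, IREB2, ACO1, NCOA4 or STEAP3. A match is a description of these letters and not a measured site. The pattern allows no gap or mismatch in the 5 paired bases, so elements that depart from it are missed. The number of matches is thus not the number of elements, and a gene without a match may still carry one.

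The core of the hypoxia response element, ACGTG or GCGTG on either strand, was searched in the 250 bases before each annotated gene start in RefSeq promoters (GRCh38.p14), where 8 of the 10 members matched an entry. This short core occurred in 43.2% of 35116 such windows, so its presence sets no gene apart. TFRC had 1 core, 88 bases before the RefSeq start, and FTL had 3. That TFRC start lies inside the GENCODE gene given above, and so does the TFRC core. The TFRC core and the FTL core 177 bases before the start are shown in capitals, because both genes are described in depth below. The other FTL cores lie 195 and 11 bases before the start, on the opposite strand.
TFRC promoter, chr3:196082162-196082190, minus strand: cctcgcgagcgtACGTGcctcaggaagtg
FTL promoter, chr19:48965120-48965148, plus strand: ggcgctacaggcGCGTGacttccccttgc
Windows of SLC11A2, IREB2 and ACO1 also held the core, and those of STEAP3, SLC40A1 and NCOA4 did not. TGACNNNGC, the core of the antioxidant response element bound by NRF2, occurred in 10.9% of all windows and in none of the member windows searched. FTH1 and HMOX1 had no entry. Sequence outside these 250 bases was not searched, so a window without a match does not show that the gene lacks such an element.

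The values are length-corrected expression units (TPM), which are scaled to the same total in every library and keep no depth, so the sequencing depth is unknown and no counting error can be given. The targeted genes were checked by their transcripts. HIF1A stood at 111.7, 110.0 and 151.5 TPM in vector, 57.3, 49.5 and 38.6 in HIF1α-ko, then 107.7, 76.1 and 76.7 in HIF2α-ko and finally 89.2, 67.8 and 69.4 in HIF1α/2α-ko. EPAS1, which encodes HIF2α, stood at 286.1, 333.3 and 345.9 TPM in vector, 251.0, 287.9 and 254.9 in HIF1α-ko, then 87.6, 117.9 and 116.0 in HIF2α-ko and finally 101.5, 119.5 and 129.9 in HIF1α/2α-ko. Both transcripts were lower where they were targeted but were still measured there. HIF1A fell by 1.34 log2 where HIF1α alone was targeted and by 0.71 in HIF1α/2α-ko (limma adjusted p = 0.00085 and 0.010), and its HIF1α/2α-ko libraries lay above those of HIF1α-ko (log2 0.64, limma adjusted p = 0.029) and overlapped with those of HIF2α-ko. The position of the edit is not given in the sources used here, so a transcript level does not show whether protein was made. By western blot the study reported more HIF2α protein after knockout of HIF1α, and more HIF1α protein after knockout of HIF2α. Whether those blots used the cultures sequenced here is not stated. Replicate 1 stood apart: in vector it correlated at r = 0.968 and 0.966 with the other two libraries, which correlated at 0.989 with each other, and in each knockout group it was the lowest library for 7 of the 9 measured members and the highest for FTL and STEAP3. In vector it was the highest for 7 and the lowest for HMOX1 and NCOA4. Differences between groups were fitted with limma on log2(TPM + 1) over 11731 genes, and a gene was called at an adjusted p under 0.05. The median of all tested genes was 0.18, -0.04 and 0.21 (log2) for HIF1α-ko, for HIF2α-ko and for HIF1α/2α-ko against vector, and under median ratio scaling it moved to 0.04, 0.00 and 0.00. With that scaling the share of calls that were higher was 48.6% in place of 66.4%, 56.9% in place of 46.3%, and 51.1% in place of 68.2%. It was 46.9% in place of 70.7% for HIF1α-ko against HIF2α-ko, 51.3% in place of 72.3% for HIF1α/2α-ko against HIF2α-ko and 51.3% in place of 64.3% for the interaction term described below.

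Markers were read from lists to check the cells. Of 10 astrocyte and glioma markers, VIM, CD44, CHI3L1, TNC and FN1 were above 100 TPM in every library and OLIG2 reached 19.2 TPM, whereas GFAP, S100B, AQP4 and SOX2 were under 1 TPM in every library, so the astrocytic markers that define glial tissue were absent or nearly so. Of 10 erythroid markers, 9 were under 1 TPM in every library and HBB was listed at 0, with EPOR as the exception. Of 10 macrophage and microglia markers, 8 were under 1 TPM in every library and TYROBP, C1QA and C1QB were listed at 0. The summed level of that list, nearly all of it CD68, a lysosomal protein gene, ran from 1288 to 1639 TPM in vector, 821.0 to 1067 in HIF1α-ko, 1015 to 1228 in HIF2α-ko and 590.8 to 821.1 in HIF1α/2α-ko. The summed level of the astrocyte and glioma list ran from 13990 to 18000 TPM in vector, 11080 to 13150 in HIF1α-ko, 8558 to 10820 in HIF2α-ko and 7526 to 11070 in HIF1α/2α-ko. The summed erythroid list stayed between 15.98 and 43.29 TPM. The summed neuron and oligodendrocyte list ran from 26.0 to 36.8 TPM in vector and from 30.5 to 35.1 in HIF2α-ko, and lay below both in HIF1α-ko (19.7 to 22.2) and HIF1α/2α-ko (13.9 to 19.6), with 6 of its 9 genes under 1 TPM in every library. The part of these shifts in the results was not tested. In bulk RNA, fewer cells of a type and less RNA per cell cannot be told apart.

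The chains of ferritin differed between groups in unequal measure. FTL, the light chain that supports the iron core, stood at 60658, 53374 and 50932 TPM in vector and at 75432, 70947 and 66348 in HIF1α-ko. It stood at 64899, 59770 and 60085 TPM in HIF2α-ko and at 84539, 73205 and 78134 in HIF1α/2α-ko. The libraries of HIF1α-ko and HIF1α/2α-ko all lay above those of vector, and those of HIF2α-ko overlapped with vector. FTL rose 1.29-fold in HIF1α-ko (log2 0.37 ± 0.10 SE, limma adjusted p = 0.021) and 1.43-fold in HIF1α/2α-ko (log2 0.52 ± 0.10, limma adjusted p = 0.0014). In HIF2α-ko the difference was 0.17 ± 0.10 on the log2 scale (limma adjusted p = 0.33). HIF1α/2α-ko also stood above HIF2α-ko by 0.35 ± 0.10 (limma adjusted p = 0.014). These calls depended on the scaling: with median ratio scaling the log2 differences were 0.20, 0.28 and 0.05 and none was called. The call in HIF1α-ko ended on leaving out any 1 of 4 libraries (vector replicates 2 and 3, HIF1α-ko replicates 1 and 2), where the log2 difference ran from 0.32 to 0.37. The call against HIF2α-ko was lost without HIF2α-ko replicate 2 or 3, at log2 differences of 0.33 and 0.33.

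FTH1, the heavy chain that carries the ferroxidase activity, did not follow FTL. It stood at 39838, 31990 and 32502 TPM in vector, 27255, 29165 and 29336 in HIF1α-ko, then 31617, 35555 and 36727 in HIF2α-ko and finally 28183, 29577 and 30706 in HIF1α/2α-ko. All libraries of HIF1α-ko and HIF1α/2α-ko lay below every vector library, and HIF2α-ko overlapped with vector. The log2 differences from vector were -0.28 ± 0.11, -0.00 ± 0.11 and -0.23 ± 0.11 for HIF1α-ko, for HIF2α-ko and for HIF1α/2α-ko (limma adjusted p = 0.077, 0.997 and 0.097), so none passed the threshold. Under median ratio scaling HIF1α-ko differed by -0.45 and HIF1α/2α-ko by -0.47, both past it (limma adjusted p = 0.023 and 0.0083), while quantile normalization turned both to 0.30, which was not called, and fixed FTL at 0 because FTL ranks 1 in every library. The FTH1 differences also leaned on vector replicate 1, the highest library: without it they were -0.17, 0.10 and -0.13 (limma adjusted p = 0.16, 0.47 and 0.26).

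The ratio of FTL to FTH1 within a library does not change when the whole library is rescaled, and it was computed after the values had been seen. It was 1.52, 1.67 and 1.57 in vector, 2.768, 2.433 and 2.262 in HIF1α-ko, then 2.05, 1.68 and 1.64 in HIF2α-ko and finally 3.0, 2.475 and 2.545 in HIF1α/2α-ko. The means were 1.59 ± 0.07, 2.49 ± 0.26, 1.79 ± 0.23 and 2.67 ± 0.29 (SD, n = 3). The ratio was thus higher in both groups in which HIF1α was targeted, and those groups shared no value with vector or HIF2α-ko. Against vector it was 1.56-fold higher in HIF1α-ko and 1.68-fold higher in HIF1α/2α-ko, each at an exact two-sided permutation p of 0.1, the smallest that 3 against 3 libraries can give. In HIF2α-ko it was 1.12-fold the vector value (exact permutation p = 0.2), and HIF1α/2α-ko differed from HIF1α-ko by 1.075-fold (exact permutation p = 0.4), both with overlapping libraries. These tests take no account of replicate numbers, and the HIF1α/2α-ko ratio exceeded that of the same-numbered HIF1α-ko library in 3 of 3 pairs, for which a paired test could not go below an exact p of 0.25. Adjusted over the 6 pairs compared, the exact permutation p-values were 0.15 for the 4 pairs without overlap, 0.24 and 0.4. Over all 4 groups the exact permutation p was 0.0018 in 369600 arrangements. A ratio shows unequal change of the chains and does not say which of them moved. Processed pseudogenes of both chains exist, and how reads that fit several places were counted is not given in the sources used here.

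**Figure D1:**
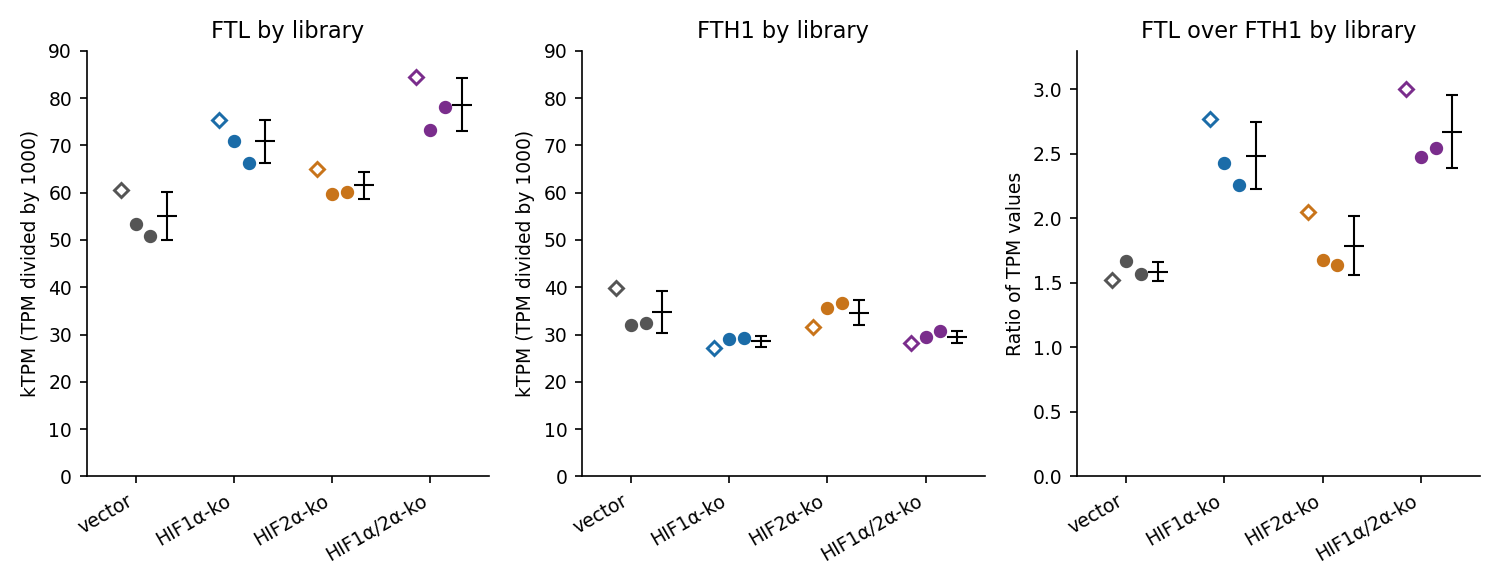
Level of FTL and of FTH1 (kTPM), and the ratio of FTL to FTH1, for each library of the 4 groups. Open diamonds are replicate 1, filled circles replicates 2 and 3, and black bars the mean ± SD (n = 3); the ratio lies between 2.262 and 3.0 in HIF1α-ko and HIF1α/2α-ko and between 1.52 and 2.05 in the others.

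Together the 2 chains took 8.34% to 11.3% of all TPM. FTL ranked 1 in all 12 libraries, and FTH1 ranked 2 in 7 of them: vector replicate 1 and all libraries of HIF1α-ko and HIF1α/2α-ko. In the other libraries FTH1 ranked 3 or 4 and GAPDH ranked 2. NCOA4, the receptor that carries ferritin to autophagosomes so that its iron is released, lay on opposite sides of vector in HIF2α-ko and HIF1α/2α-ko. It stood at 46.2, 48.1 and 51.8 TPM in vector, 41.2, 65.8 and 54.3 in HIF1α-ko, then 28.0, 35.8 and 40.4 in HIF2α-ko and finally 65.6, 69.5 and 66.5 in HIF1α/2α-ko. HIF2α-ko lay wholly below vector and HIF1α/2α-ko wholly above it, while HIF1α-ko spanned the vector range. NCOA4 rose in HIF1α/2α-ko by 0.46 ± 0.17 log2 (limma adjusted p = 0.046), a call lost without any 1 of the vector or HIF1α/2α-ko libraries (log2 0.42 to 0.50), without HIF1α-ko replicate 3 or HIF2α-ko replicate 2, and with median ratio scaling (0.22), among 12 of 22 alternatives. It differed from vector by 0.12 ± 0.17 in HIF1α-ko and by -0.49 ± 0.17 in HIF2α-ko (limma adjusted p = 0.65 and 0.091). HIF1α/2α-ko stood 1.93-fold above HIF2α-ko (log2 0.95 ± 0.17, limma adjusted p = 0.00084), and HIF1α-ko stood 1.52-fold above HIF2α-ko (log2 0.61 ± 0.17, limma adjusted p = 0.025), a call lost without HIF1α-ko replicate 2 or 3 or HIF2α-ko replicate 1 or 2 (log2 0.45 to 0.64) and with median ratio scaling (0.39, limma adjusted p = 0.088).

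Of 9 genes in the storage and ferritinophagy list, 8 were tested and FTMT, mitochondrial ferritin, was listed at 0 in every library. In HIF1α-ko 3 rose and none fell, in HIF2α-ko 1 fell, and in HIF1α/2α-ko 3 rose and 1 fell, where 17.3%, 5.07% and 31.8% of all tested genes were called higher and 8.77%, 5.89% and 14.8% lower. With median ratio scaling 1 gene of the list was higher and 2 were lower in HIF1α-ko and again in HIF1α/2α-ko. Among all tested genes 11.8% and 23.8% were then called higher and 12.5% and 22.8% lower in these groups. The split between directions thus depended on the scaling. PCBP3, of the family of poly(C)-binding proteins whose relatives deliver iron to ferritin, rose in HIF1α-ko from 47.6 ± 4.07 to 87.9 ± 5.63 TPM (SD, n = 3) and fell in HIF2α-ko to 21.6 ± 3.55 and in HIF1α/2α-ko to 30.2 ± 5.86. Its log2 changes were 0.87, -1.11 and -0.66 (limma adjusted p = 0.0031, 0.0029 and 0.0059). PCBP4 rose in HIF1α-ko by 0.88 log2 (limma adjusted p = 0.016). HERC2, a ubiquitin ligase that marks NCOA4 for degradation, rose in HIF1α/2α-ko by 1.24 log2 (limma adjusted p = 0.00042), at a mean of only 4.45 ± 0.83 TPM (SD, n = 3). The list's median log2 difference was 0.24, -0.01 and 0.23 in the 3 comparisons, beside 0.18, -0.04 and 0.21 over all tested genes.

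TFRC, the transferrin receptor, was the member with the largest standard error. It stood at 14.2, 5.82 and 6.87 TPM in vector, 6.22, 12.7 and 9.92 in HIF1α-ko, then 9.72, 26.9 and 26.8 in HIF2α-ko and finally 10.6, 26.7 and 19.8 in HIF1α/2α-ko. Replicates 2 and 3 of HIF2α-ko and HIF1α/2α-ko lay above every vector library, but replicate 1 of each fell inside the vector range. The log2 differences from vector were 0.13 ± 0.44, 1.12 ± 0.44 and 1.01 ± 0.44 for HIF1α-ko, for HIF2α-ko and for HIF1α/2α-ko (limma adjusted p = 0.84, 0.12 and 0.075), and none was called. Without vector replicate 1 they were 0.49, 1.47 and 1.36, and the latter pair was called (limma adjusted p = 0.43, 0.043 and 0.030). With replicates 2 and 3 of every group only they were 0.74, 1.93 and 1.71 (limma adjusted p = 0.0090, 0.00035 and 0.00012). The calls in HIF2α-ko and HIF1α/2α-ko were also gained without HIF2α-ko replicate 1, and that in HIF1α/2α-ko without its own replicate 1.

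STEAP3, the endosomal reductase that converts the iron delivered by transferrin, showed the clearest fall. It stood at 446.4, 287.0 and 291.7 TPM in vector, 522.7, 427.8 and 389.7 in HIF1α-ko, then 262.6, 236.3 and 218.3 in HIF2α-ko and finally 146.0, 101.7 and 103.1 in HIF1α/2α-ko. Every HIF1α/2α-ko library lay below every other library of the study, and HIF1α-ko lay wholly above HIF2α-ko. STEAP3 fell in HIF1α/2α-ko to 0.347 of the vector level (log2 -1.53 ± 0.19, limma adjusted p = 6.4e-05). The differences in HIF1α-ko (0.41 ± 0.19) and HIF2α-ko (-0.49 ± 0.19) pointed in opposite directions and were not called (limma adjusted p = 0.14 and 0.13). Against HIF1α-ko the fall in HIF1α/2α-ko was -1.93 ± 0.19 log2 and against HIF2α-ko -1.04 ± 0.19 (limma adjusted p = 5.6e-05 and 0.00094). HIF1α-ko exceeded HIF2α-ko by 0.89 ± 0.19 (limma adjusted p = 0.0065), a call lost with median ratio scaling at 0.67. Without vector replicate 1 the difference in HIF1α-ko was 0.61 and was called (limma adjusted p = 0.017), and that in HIF2α-ko was -0.28 (limma adjusted p = 0.28).

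SLC11A2, the divalent metal transporter that moves iron from endosome to cytosol, stood at 62.9, 34.7 and 44.1 TPM in vector, 49.9, 71.9 and 67.7 in HIF1α-ko, then 45.0, 63.7 and 68.9 in HIF2α-ko and finally 54.1, 66.0 and 68.9 in HIF1α/2α-ko. All 3 knockout groups overlapped with vector, where replicate 1 lay high, whereas replicate 1 of each knockout lay low. The log2 differences were 0.44, 0.34 and 0.44, each ± 0.23 (limma adjusted p = 0.17, 0.37 and 0.13). Without vector replicate 1 they were 0.66, 0.56 and 0.67, called in HIF1α-ko and HIF1α/2α-ko (limma adjusted p = 0.033, 0.085 and 0.024). With replicates 2 and 3 only, all 3 were called, at 0.82, 0.74 and 0.77 (limma adjusted p = 0.0012, 0.0033 and 0.00099). Over the uptake list, 10 of 14 genes were tested, and STEAP3 was the only 1 called against vector, in HIF1α/2α-ko. Without vector replicate 1 the list had 6, 2 and 3 calls in the 3 comparisons with vector. The share of all genes called was then 35.8%, 21.3% and 48.4%, in place of 26.1%, 11.0% and 46.7%. The other named genes of the list, STEAP1, STEAP2 and SLC39A8, were called in none of the 3 comparisons. Transferrin itself, TF, did not exceed 0.254 TPM in any library.

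**Figure D2:**
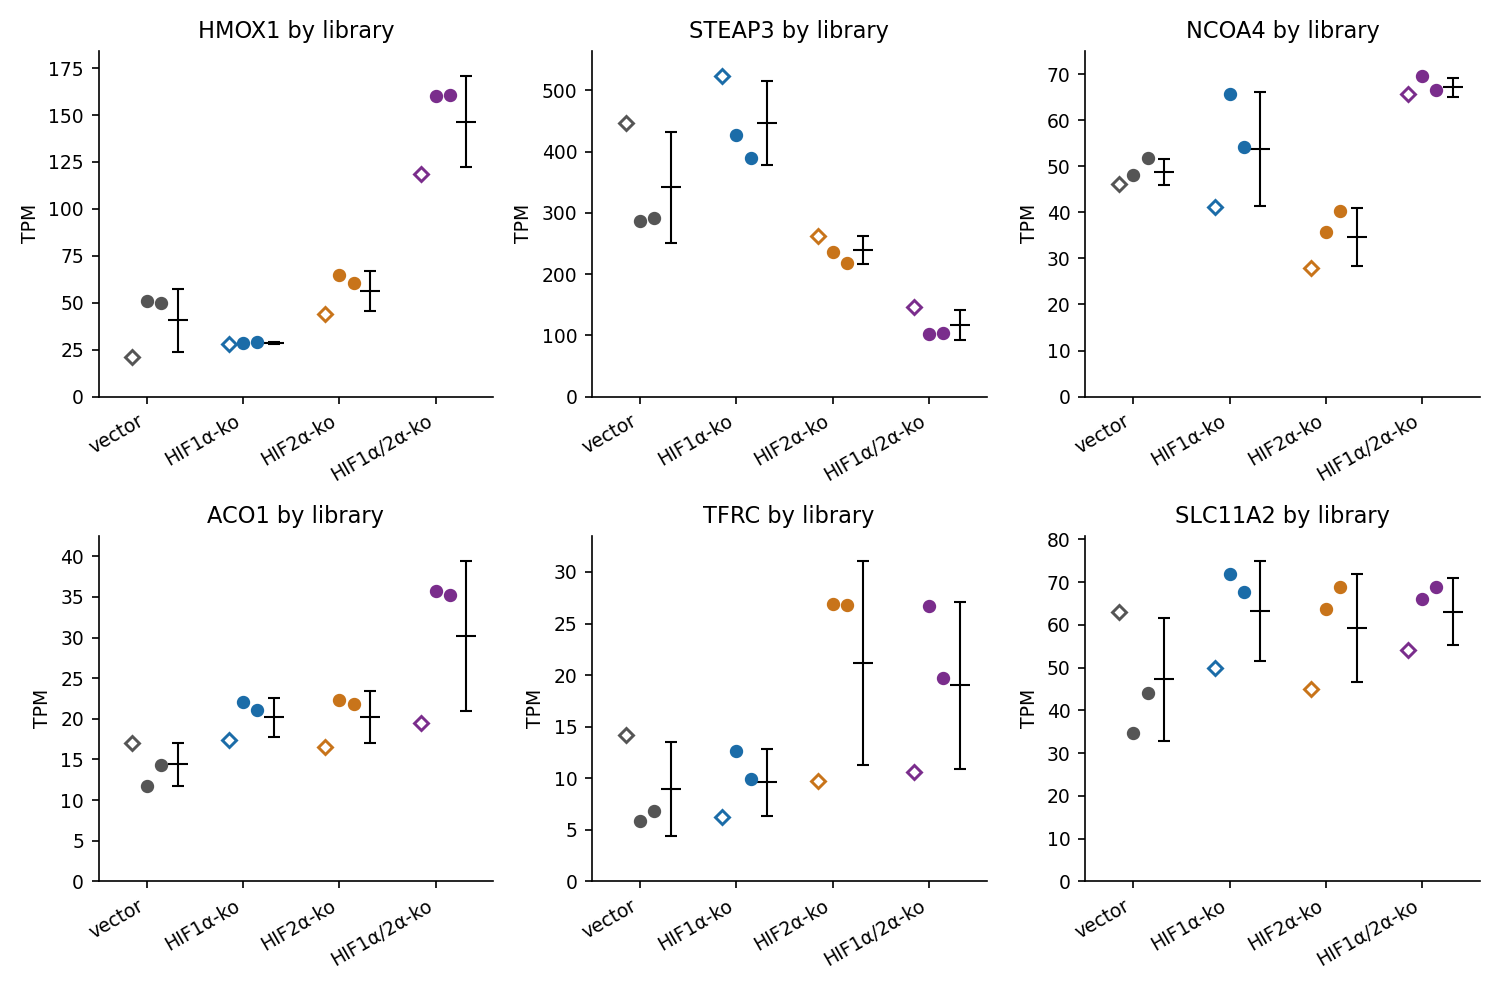
TPM of HMOX1, STEAP3, NCOA4, ACO1, TFRC and SLC11A2 in each library, with replicate 1 as an open diamond, replicates 2 and 3 as filled circles and the mean ± SD (n = 3) as black bars. HMOX1 ran from 118.5 to 160.6 TPM in HIF1α/2α-ko and STEAP3 from 101.7 to 146.0, in both cases outside the range of every other group, whereas replicate 1 of TFRC and SLC11A2 stood apart in all groups.

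SLC40A1, which encodes ferroportin, the only known cellular exporter of iron, was listed at 0 in all 12 libraries and was not tested. Its Ensembl identifier was matched in the table, so the row exists. Of the 20263 genes, 3382 were listed at 0 in every library. With depth and counting tool unknown, a value of 0 does not show that the transcript was absent. Of 12 genes of export and its hormone axis only 4 passed the filter, and HAMP (hepcidin) did not exceed 0.12 TPM. BMP2, a ligand that drives hepcidin transcription in liver, stood at 1.62, 0.82 and 0.83 TPM in vector, 1.32, 2.48 and 2.74 in HIF1α-ko, then 3.85, 3.70 and 4.10 in HIF2α-ko and finally 8.32, 10.9 and 10.6 in HIF1α/2α-ko. It rose by 1.25 log2 in HIF2α-ko and by 2.40 in HIF1α/2α-ko (limma adjusted p = 0.0051 and 6.2e-06), which on this scale understates the change of so low a gene. NEO1, a co-receptor of that axis, rose in HIF1α/2α-ko by 0.63 log2 (limma adjusted p = 0.020), a call lost in 6 of 22 alternatives, among them median ratio scaling and leaving out vector replicate 2 or 3 or HIF1α/2α-ko replicate 2 (log2 0.31 to 0.82 over all alternatives), and HFE was not called against vector.

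HMOX1, the heme oxygenase that opens the heme ring and frees its iron, was called higher than vector in HIF1α/2α-ko and in neither single knockout. It stood at 21.2, 50.8 and 49.8 TPM in vector, 27.9, 28.8 and 29.2 in HIF1α-ko, then 44.1, 64.6 and 60.4 in HIF2α-ko and finally 118.5, 160.2 and 160.6 in HIF1α/2α-ko. The HIF1α/2α-ko libraries lay above all others, and the HIF1α-ko libraries lay below all of HIF2α-ko. The rise in HIF1α/2α-ko was 3.76-fold (log2 1.91 ± 0.28, limma adjusted p = 0.00016). The difference was -0.39 ± 0.28 for HIF1α-ko and 0.55 ± 0.28 for HIF2α-ko (limma adjusted p = 0.31 and 0.23). HIF1α/2α-ko stood 4.93-fold above HIF1α-ko and 2.58-fold above HIF2α-ko (log2 2.30 and 1.37, limma adjusted p = 0.00014 and 0.0017). HIF1α-ko was lower than HIF2α-ko by -0.93 ± 0.28 log2 (limma adjusted p = 0.030), a call lost without any 1 HIF1α-ko library or without HIF2α-ko replicate 2 or 3 (log2 -0.95 to -0.83). Vector replicate 1 lay far below its companions. Without it the difference in HIF1α-ko was -0.79 and was called (limma adjusted p = 0.0057), that in HIF2α-ko fell to 0.14 (limma adjusted p = 0.61), and that in HIF1α/2α-ko was 1.51 (limma adjusted p = 5.8e-05).

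The interaction term asks whether the change in HIF1α/2α-ko departs from what adding the 2 single-knockout changes would give. It was 1.76 ± 0.39 log2 for HMOX1 (limma adjusted p = 0.0097), -1.45 ± 0.27 for STEAP3 (limma adjusted p = 0.0044) and 0.83 ± 0.25 for NCOA4 (limma adjusted p = 0.032). It was -0.02 ± 0.15 for FTL and 0.05 ± 0.15 for FTH1 (limma adjusted p = 0.94 and 0.86), neither past the threshold. The NCOA4 term was lost when any of 8 single libraries was left out (log2 0.66 to 0.86, limma adjusted p = 0.057 to 0.072). Over all tested genes the interaction was called higher in 13.2% and lower in 7.35%.

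Around HMOX1, 16 of 18 genes of heme synthesis, transport and breakdown were tested. In HIF1α-ko 3 rose and 2 fell, in HIF2α-ko none rose and 1 fell, and in HIF1α/2α-ko 9 rose and 3 fell, HMOX1 included. Over all tested genes 17.3%, 5.07% and 31.8% were called higher and 8.77%, 5.89% and 14.8% lower. BLVRA, biliverdin reductase, which acts on the product of heme oxygenase, stood at 18.5, 18.9 and 21.2 TPM in vector, 39.4, 40.8 and 43.7 in HIF1α-ko, then 25.1, 24.3 and 25.1 in HIF2α-ko and finally 57.8, 63.4 and 67.1 in HIF1α/2α-ko. It rose by 1.04 log2 in HIF1α-ko and by 1.63 in HIF1α/2α-ko (limma adjusted p = 0.00022 and 1.7e-06). ALAS1, the rate-limiting enzyme of heme synthesis outside erythroid cells, rose by 0.61 and 1.14 log2 in the same groups (limma adjusted p = 0.010 and 6.3e-05). SLC48A1, a lysosomal heme transporter, rose in HIF1α/2α-ko by 1.70 (limma adjusted p = 8.8e-05). Enzymes of heme synthesis were among both the genes that rose and those that fell in HIF1α/2α-ko. With median ratio scaling 6 rose and 3 fell there, where 23.8% of all genes were higher and 22.8% lower. Without vector replicate 1 the list had 8, 3 and 12 calls in the 3 comparisons, beside 35.8%, 21.3% and 48.4% of all genes. The list's median in HIF1α/2α-ko was 0.42 log2, beside 0.21 over all tested genes.

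ACO1 and IREB2 encode the iron regulatory proteins, of which the first is an aconitase when it holds its iron-sulfur cluster. ACO1 stood at 17.1, 11.8 and 14.4 TPM in vector, 17.4, 22.0 and 21.1 in HIF1α-ko, then 16.5, 22.3 and 21.8 in HIF2α-ko and finally 19.5, 35.7 and 35.2 in HIF1α/2α-ko. HIF1α/2α-ko lay wholly above vector, as did HIF1α-ko by a small margin. ACO1 rose 1.97-fold in HIF1α/2α-ko (log2 0.98 ± 0.23, limma adjusted p = 0.0040), at 0.47 ± 0.23 in each single knockout (limma adjusted p = 0.15 in HIF1α-ko and 0.22 in HIF2α-ko). With replicates 2 and 3 of every group only, the 3 log2 differences were 0.69, 0.72 and 1.38 and all were called (limma adjusted p = 0.0016, 0.0024 and 3.6e-05).

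IREB2 stood at 8.38, 5.53 and 7.21 TPM in vector, 6.45, 8.29 and 7.95 in HIF1α-ko, then 6.49, 10.7 and 9.23 in HIF2α-ko and finally 3.84, 7.63 and 7.20 in HIF1α/2α-ko, so that all groups overlapped. The log2 differences from vector were 0.10, 0.28 and -0.18, each ± 0.25 (limma adjusted p = 0.79, 0.51 and 0.56). Of the other 4 genes of the iron sensing list, EPAS1 fell in HIF2α-ko and HIF1α/2α-ko as a targeted gene, and FBXL5, CISD1 and the remaining gene were not called against vector. FBXL5, the iron-sensing ubiquitin ligase that removes IREB2 protein, stood at 63.6, 32.9 and 64.4 TPM in vector and 36.6, 24.8 and 30.7 in HIF1α/2α-ko, with overlapping libraries.

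**Figure D3:**
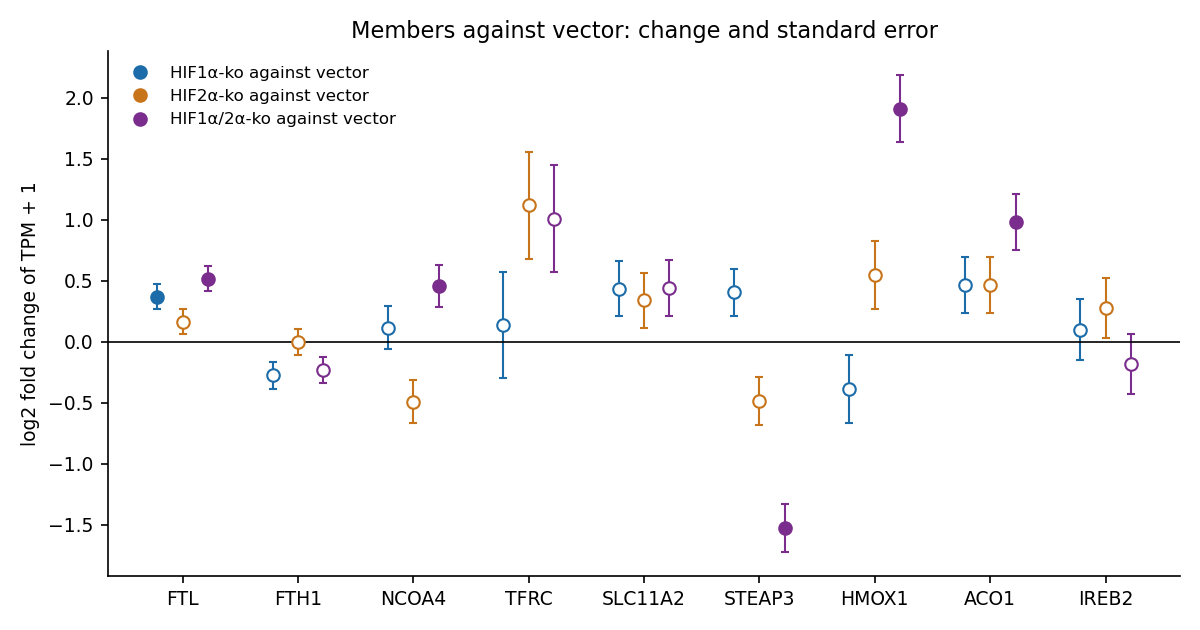
Log2 fold change of TPM + 1 against vector, with its standard error, for the 9 tested members in the 3 knockout groups. Filled points passed the limma threshold: FTL in HIF1α-ko, and FTL, NCOA4, HMOX1, ACO1 and STEAP3 in HIF1α/2α-ko, with STEAP3 the only 1 of these below 0; no point of HIF2α-ko is filled.

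Counted over the members, HIF1α-ko had 1 of 9 tested genes higher and none lower, where 17.3% of all tested genes were higher and 8.77% lower. HIF2α-ko had no call, where 5.07% were higher and 5.89% lower; at an unadjusted limma p under 0.05 it had 3 of 9, TFRC, NCOA4 and STEAP3 (0.0243, 0.0148 and 0.0269), beside 26.8% of all tested genes. HIF1α/2α-ko had 4 higher and 1 lower, where 31.8% and 14.8% of all genes were called, so the members' share of 5 in 9 stands near that background. With median ratio scaling FTH1 was the 1 member called in HIF1α-ko, and was lower, and HIF2α-ko had none. HIF1α/2α-ko then had HMOX1 and ACO1 higher with FTH1 and STEAP3 lower. Among all genes 11.8%, 6.82% and 23.8% were higher and 12.5%, 5.17% and 22.8% lower under that scaling. The median member difference was 0.14, 0.28 and 0.46 log2 beside 0.18, -0.04 and 0.21 over all tested genes. These 3 comparisons share the vector libraries. Leaving out vector replicate 1 gave 4, 1 and 6 calls among members, where 35.8%, 21.3% and 48.4% of all genes were called, and using replicates 2 and 3 only gave 7, 9 and 7, where the share of all genes called rose to 55.1%, 36.5% and 64.4%.

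Between the knockouts, HIF1α-ko against HIF2α-ko had 2 members higher (NCOA4 and STEAP3) and 1 lower (HMOX1), beside 17.8% and 7.37% of all genes. HIF1α/2α-ko against HIF1α-ko had HMOX1 higher and STEAP3 lower, beside 17.7% and 10.6%. HIF1α/2α-ko against HIF2α-ko had FTL, HMOX1 and NCOA4 higher and STEAP3 lower, beside 33.5% and 12.9%. Median ratio scaling turned these counts: HIF1α-ko against HIF2α-ko then had none higher and FTH1, TFRC and HMOX1 lower (log2 -0.50, -1.19 and -1.15, limma adjusted p = 0.014, 0.049 and 0.010), beside 9.45% and 10.7% of all genes. HIF1α/2α-ko against HIF2α-ko then had HMOX1 and NCOA4 higher and FTH1, IREB2 and STEAP3 lower (log2 -0.53, -0.72 and -1.34 for the lower genes, limma adjusted p = 0.0047, 0.011 and 0.00070), beside 22.8% and 21.7%. Same-numbered knockout libraries deviated together, replicate 1 most of all (Pearson r = 0.463 to 0.508). With the replicate number as a block on the 3 knockout groups the calls rose to 6, 5 and 7. The share of all genes called rose to 50.5%, 48.5% and 62.6%. The blocked p-values rest on pairing by number, which for replicates 2 and 3 was not shown apart from the shift of replicate 1. In that blocked fit TFRC was lower in HIF1α-ko than in HIF2α-ko (log2 -0.98, limma adjusted p = 0.0016) while HIF1α/2α-ko exceeded HIF1α-ko (0.87, limma adjusted p = 0.0023). FTL in HIF1α-ko exceeded HIF2α-ko by 0.20, and HIF1α/2α-ko exceeded HIF1α-ko by 0.15 (limma adjusted p = 0.013 and 0.042). FTH1 was lower than in HIF2α-ko by -0.27 in HIF1α-ko and by -0.23 in HIF1α/2α-ko (limma adjusted p = 0.0026 and 0.0034). ACO1 in HIF1α/2α-ko exceeded either single knockout, by 0.51 and 0.52 (limma adjusted p = 0.011 and 0.0078), and IREB2 was lower in HIF1α/2α-ko than in HIF2α-ko by -0.46 (limma adjusted p = 0.014). With median ratio scaling and no block the FTL differences were -0.02 and 0.08 and those of ACO1 0.44 and 0.23, none of them called (limma adjusted p = 0.93, 0.75, 0.083 and 0.32).

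Outside the members, the NRF2 and BACH1 list, which holds the transcription factors that oppose each other at ferritin and HMOX1 enhancers together with antioxidant targets, had 13 of 15 genes tested. In HIF1α-ko 4 rose and 1 fell, in HIF2α-ko 2 rose and none fell, and in HIF1α/2α-ko 11 rose and 1 fell. Of all tested genes 17.3%, 5.07% and 31.8% were called higher and 8.77%, 5.89% and 14.8% lower. The list was written with earlier results of these data known. Its median in HIF1α/2α-ko was 1.70 log2, beside 0.21 over all tested genes. SRXN1, which repairs oxidised peroxiredoxins, stood at 12.7, 16.5 and 18.2 TPM in vector, 21.3, 41.3 and 43.3 in HIF1α-ko, then 14.7, 22.4 and 22.5 in HIF2α-ko and finally 96.9, 241.6 and 247.7 in HIF1α/2α-ko. It rose by 1.06 log2 in HIF1α-ko and by 3.44 in HIF1α/2α-ko (limma adjusted p = 0.045 and 1.6e-05), the former a call lost in 10 of 22 alternatives, among them median ratio scaling and leaving out any 1 vector library, HIF1α-ko replicate 2 or 3 or HIF2α-ko replicate 2 or 3 (log2 0.88 to 1.38 over all alternatives). TXNRD1, thioredoxin reductase, stood at 41.4, 364.6 and 354.4 TPM in HIF1α/2α-ko and at 12.4 to 20.7 in vector, so that replicate 1 carried a far smaller difference than its companions (log2 3.41, limma adjusted p = 0.0014). NQO1, a quinone reductase, rose by 1.14 in HIF2α-ko and by 2.04 in HIF1α/2α-ko (limma adjusted p = 0.011 and 3.5e-05). GCLC and GCLM, the subunits of the rate-limiting enzyme of glutathione synthesis, rose in HIF1α/2α-ko by 1.70 and 1.72 (limma adjusted p = 0.0075 and 0.00028), and NFE2L2, which encodes NRF2, by 1.01 (limma adjusted p = 0.0087). BACH1, the repressor of HMOX1 that heme inactivates, rose in HIF1α-ko by 1.01 log2 (limma adjusted p = 0.013) and stood at 6.57, 10.4 and 10.1 TPM in HIF1α/2α-ko beside 17.1, 8.08 and 13.05 in vector. PIR, another listed target, rose in all 3 groups, by 0.93, 0.74 and 2.42 (limma adjusted p = 0.0091, 0.045 and 6.8e-06), of which the call in HIF2α-ko was lost in 11 of 22 alternatives, 9 of them leaving out 1 library other than replicate 1 of vector, HIF1α-ko or HIF1α/2α-ko (log2 0.53 to 1.01 over all alternatives). AKR1B10 and AKR1C1 rose in HIF1α/2α-ko by 1.73 and 1.56 (limma adjusted p = 0.00022 and 0.00013), with AKR1B10 at only 2.04, 0.42 and 0.64 TPM in vector. OSGIN1, listed as an NRF2 target, fell in HIF1α-ko by -0.73 and in HIF1α/2α-ko by -1.28 (limma adjusted p = 0.0069 and 5.5e-05).

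The list of mitochondrial iron and iron-sulfur assembly had 29 of 30 genes tested. In HIF1α-ko 8 rose and 1 fell, in HIF2α-ko 2 rose and none fell, and in HIF1α/2α-ko 15 rose and none fell, at a median of 0.50 log2 there, beside 0.21 over all tested genes. Of all tested genes 17.3%, 5.07% and 31.8% rose and 8.77%, 5.89% and 14.8% fell. With median ratio scaling 5, 1 and 13 genes of the list rose and 1, 0 and 2 fell. Among all tested genes 11.8%, 6.82% and 23.8% were then called higher and 12.5%, 5.17% and 22.8% lower. ISCU, the scaffold on which clusters are built, stood at 49.3, 61.0 and 69.2 TPM in vector, 114.4, 169.4 and 145.2 in HIF1α-ko, then 43.7, 45.5 and 55.3 in HIF2α-ko and finally 181.6, 214.4 and 225.1 in HIF1α/2α-ko. It rose by 1.24 and 1.78 log2 in HIF1α-ko and HIF1α/2α-ko (limma adjusted p = 0.00069 and 1.2e-05). GLRX5, which passes clusters on, rose by 0.54 and 1.22 in the same groups (limma adjusted p = 0.027 and 8.4e-05), the former a call lost in 8 of 22 alternatives, including median ratio scaling and leaving out any 1 HIF1α-ko library or vector replicate 2 or 3 (log2 0.38 to 0.70 over all alternatives). FDX1, a ferredoxin, rose by 0.85 and 1.30 (limma adjusted p = 0.0041 and 7.3e-05). HSPA9, the chaperone of the pathway, rose in HIF1α/2α-ko by 1.26 (limma adjusted p = 0.0058). ABCB8 rose by 1.19 in HIF1α-ko and by 2.00 in HIF1α/2α-ko (limma adjusted p = 0.014 and 0.00021). GLRX3, CIAO1, CIAPIN1 and NUBP2, of the cytosolic assembly machinery, rose in HIF1α/2α-ko by 1.20, 1.01, 1.07 and 1.15 (limma adjusted p = 0.00097, 0.00021, 0.0020 and 0.0053). As a reference for the knockouts, 7 of 10 hypoxia genes fell in HIF1α/2α-ko and 5 in HIF1α-ko, beside 14.8% and 8.77% of all tested genes. In HIF2α-ko none fell and ANKRD37 rose, where 5.89% of all tested genes fell and 5.07% rose. CA9, a carbonic anhydrase induced by HIF1α, fell by -1.85 log2 in HIF1α-ko and by -2.45 in HIF1α/2α-ko (limma adjusted p = 9.6e-05 and 1.5e-06). BNIP3, a mitophagy receptor, fell by -3.76 and -2.83 (limma adjusted p = 2.0e-06 and 1.6e-06), while SLC2A1 and ADM fell in HIF1α/2α-ko by -1.02 and -1.73 (limma adjusted p = 3.9e-05 and 0.00020). Compared with HIF1α-ko, HIF1α/2α-ko had 2 of the 10 hypoxia genes higher, PDK1 and BNIP3, and 6 lower. Among all tested genes 17.7% were higher and 10.6% lower in that comparison.

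**Figure D4:**
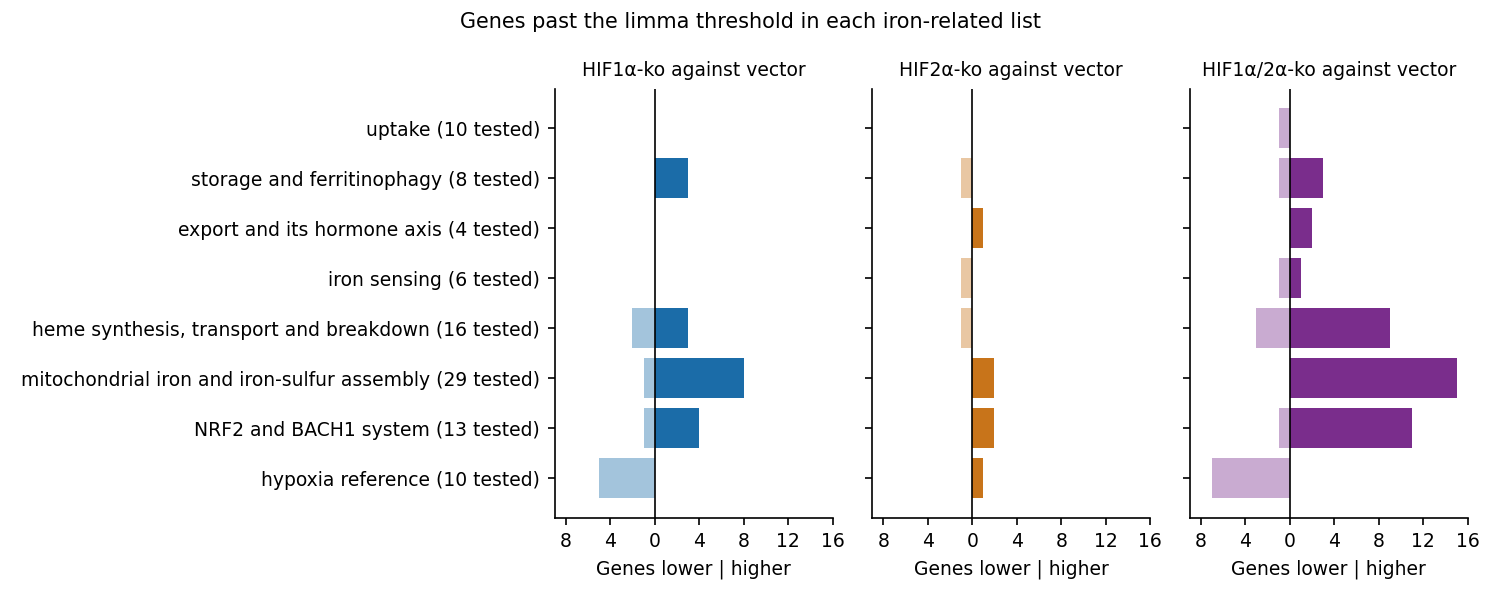
Number of genes past the limma threshold in each of 8 lists, lower to the left in a pale shade and higher to the right, for each knockout group against vector, with the number tested beside the list's name. In HIF1α/2α-ko the bars to the right reach 15 of 29 for iron-sulfur assembly, 11 of 13 for the NRF2 and BACH1 system and 9 of 16 for heme, and in HIF2α-ko no bar is longer than 2. Of all tested genes 31.8% were called higher in HIF1α/2α-ko, and 5.07% higher and 5.89% lower in HIF2α-ko.

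The genes whose log2(TPM + 1) most resembled that of FTL over the 12 libraries were THBS2 (Pearson r = 0.978), AZIN2 (0.967), PLA2G3 (0.965), FHOD1 (0.965) and B4GALT2 (0.963). Those most like HMOX1 were DOT1L (0.961), MTHFD1L (0.957), C7orf50 (0.956), LDLRAD3 (0.952) and ADRM1 (0.948), and those most like TFRC were IL1A (0.922), DYNC1H1 (0.921), DCBLD1 (0.913), ZNG1A (0.912) and PRKRIP1 (0.911). Among the members, STEAP3 ran opposite to HMOX1 (Pearson r = -0.982, and -0.862 within groups). These are descriptions over 12 libraries that share 4 genotypes and the deviation of replicate 1.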

How the data were processed

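The authors sequenced mRNA of 12 U-87 MG libraries and deposited TPM, scaled per library by the authors and not pooled; column sums ran from 999955 to 999982. The submitters' processing notes name FastQC 0.11.2, Trimmomatic 0.36, HISAT2 2.0, bedtools 2.26.0 and GRCh38; the counting tool and annotation are not given in the sources used here. Symbols were matched for 20148 identifiers, with 76 more from GENCODE 29, whose gene models also gave positions. The 3 vector columns are those whose names carry no code for a knockout.

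TPM keeps no depth, so no count model was used. The fit took genes that reached 1 TPM in 3 or more libraries, as log2(TPM + 1), with limma 3.58.1 in R 4.3.3 (mean-variance trend, 4 groups in 1 model, Benjamini-Hochberg adjustment within each contrast, threshold 0.05); the script was tested on simulated data. Fold changes carry the pseudocount of 1 and understate low genes. Of the genes described as called against vector, FDX1, AKR1B10, HERC2 and BMP2 reached 1 TPM in fewer than 3 vector libraries. These genes passed the filter through knockout libraries. The members and lists were chosen with earlier results of these data known. Genes named beside the members are HIF1A, EPAS1 and, per list, the 3 non-members of lowest p when HIF1α/2α-ko was compared with vector, and those called with a log2 change of at least 1 in size against vector. Also named are the 5 genes most like FTL, TFRC and HMOX1. Marker genes and list members named by level fall outside that rule. Some genes that meet it are not reported here. Same-numbered knockout libraries correlated at r = 0.196 to 0.508 in their deviations from group means, and vector with knockout libraries at -0.0265 to 0.163, so numbers were taken to pair the knockout groups only. Deviations from a mean of 3 libraries are tied together, so a shared shift of replicate 1 also raises r for numbers 2 and 3. These r values alone therefore do not show that numbers 2 and 3 are paired. Tables and figures were made with matplotlib 3.10.9, numpy 2.4.6 and pandas 2.3.3 under Python 3.11.15.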

Additional observations from a re-analysis of the deposited data

Results flagged for a closer look

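For 3 members the change in HIF1α/2α-ko departed from the sum of the single-knockout changes by the interaction term of limma: HMOX1 by 1.757 log2 (adjusted p = 0.0097), NCOA4 by 0.833 (adjusted p = 0.032) and STEAP3 by -1.448 (adjusted p = 0.0044). HMOX1 and STEAP3 stayed past the threshold under all 21 alternatives that gave an interaction, at 1.55 to 2.16 and at -1.66 to -1.33. NCOA4 did not in 8 of them.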

How the results depend on the processing

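The number of members called moved with the settings. The share of all genes called was not computed for no filter, quantile normalization, 2 groups only or no mean-variance trend. Nor was it computed for the block over all groups or, apart from vector replicate 1, for single libraries left out. Member counts under these settings therefore cannot be told apart from a change in the share called over all genes. In HIF1α-ko against vector (1 call) it was 0 with no filter, with quantile normalization, with 2 groups only and with no mean-variance trend, 7 with replicates 2 and 3 of every group only, and 0 to 4 when 1 library was left out. In HIF2α-ko (0 calls) it was 9 with replicates 2 and 3 only and 0 to 1 with 1 library left out, and in HIF1α/2α-ko (5 calls) it was 3 with no filter. For HIF1α-ko against HIF2α-ko (3 calls) it was 5 with quantile normalization, 6 with replicates 2 and 3 only and 1 to 4 with 1 library left out. Replicates 2 and 3 only gave 4 calls for HIF1α/2α-ko against HIF1α-ko (2 calls), 7 against HIF2α-ko (4 calls) and 6 for the interaction (3 calls). For these 3 the share of all genes called rose to 45.0%, 60.7% and 43.0%, from 28.3%, 46.4% and 20.6%. For HIF1α-ko against HIF2α-ko it rose to 47.1% from 25.1% under that setting. The replicate block on the 3 knockout groups gave 6, 5 and 7 calls, as described. Vector shares only a number with the knockouts, and a replicate block over all groups gave 2 calls in each single knockout against vector.

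Directions turned for some small differences. Quantile normalization set FTL to 0.0 in each comparison with vector and between HIF1α/2α-ko and HIF2α-ko, by construction, since FTL ranks 1 in every library, and it set FTH1 to 0.301 against vector in HIF1α-ko and HIF1α/2α-ko. FTH1 in HIF2α-ko was 0.054 with median ratio scaling, 0.009 when rescaled without ferritin, 0.164 with replicates 2 and 3 only and -0.058 to 0.1 with 1 library left out. In HIF1α-ko, TFRC was -0.018, IREB2 -0.049 and NCOA4 -0.051 with median ratio scaling, and TFRC -0.051 and IREB2 -0.090 with quantile normalization. With 1 library left out these ran from -0.092 to 0.485, -0.042 to 0.219 and -0.040 to 0.291. IREB2 in HIF1α/2α-ko was 0.200 with replicates 2 and 3 only and -0.337 to 0.081 with 1 library left out. The cause of these changes was not tested. HMOX1, STEAP3 and ACO1 in HIF1α/2α-ko against vector stayed past the threshold in all 22 alternatives, at 1.51 to 2.12, -1.77 to -1.32 and 0.69 to 1.38. FTL also lost its call with no filter, both in HIF1α/2α-ko and in HIF1α-ko, and in the latter with 2 groups only and with no trend. Of 62 calls of other named genes against vector, 53 held in every alternative and 9 were lost in 1 or more, 5 of them with median ratio scaling. Beside those described above these were, in HIF1α-ko, PCBP4 (median ratio scaling, or without vector replicate 2 or 3 or its own replicate 1 or 3), ALAS1 (median ratio scaling), ABCB8 (without vector replicate 2 or 3) and BACH1 (without vector replicate 2 or its own replicate 2 or 3) and, in HIF2α-ko, NQO1 (without vector replicate 3). Depth is unknown, so counting error cannot be separated from the spread.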

Other observations

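CYBRD1, a ferric reductase of the uptake list that was chosen here after its values were seen, stood at 64.6 TPM in HIF1α-ko replicate 1 and at 46.8 in HIF2α-ko replicate 3, while the other libraries stood at 26.3 and 23.3 in HIF1α-ko and at 11.6 and 12.4 in HIF2α-ko. It stood at 13.6 to 16.1 TPM in vector and 12.5 to 18.3 in HIF1α/2α-ko. EPOR, the receptor of erythropoietin and the only erythroid marker above 1 TPM, stood at 18.6 to 26.5 TPM in vector and at 23.4 to 43.2 in HIF2α-ko.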
